A study of Mus musculus with 26 samples.

Results

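The 8 genes described here act in cholesterol synthesis or in its control: Hmgcs1, Idi1, Fdps, Fdft1, Sqle, Lss, Cyp51 and Insig1. They were taken as the probe sets whose annotation names that gene symbol alone, which gave 21 probe sets for the 8 genes, out of 45101 probe sets on the array, which name 18194 genes by a single symbol. Values are those of the probe set with the highest mean log2 signal over all arrays, and the other probe sets of the gene are given beside it. Male C57BL/6 mice were operated at 12 weeks of age by destabilization of the medial meniscus (DMM), in which the ligament that anchors the medial meniscus is cut so that osteoarthritis develops, or by sham surgery, and a baseline group was left unoperated. Medial knee tissue (cartilage, subchondral bone, meniscus, capsule and synovium together) was collected 2, 4, 8 and 16 weeks later, at 14, 16, 20 and 28 weeks of age, and at time 0 from the baseline mice at 12 weeks. RNA of 3 mice was pooled for each array. There were 26 arrays in 9 conditions: 2 DMM pools at 2 weeks, 3 DMM pools at each later week, 3 sham pools at every week and 3 pools at time 0. All mice were wild type, and no unoperated mice older than 12 weeks were measured, so time since surgery and age cannot be told apart in a comparison with time 0.

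Cholesterol is built from acetyl-CoA. Hmgcs1 makes HMG-CoA, the substrate of the step that commits carbon to the mevalonate pathway, Idi1 interconverts the isoprene building blocks and Fdps joins them to farnesyl diphosphate, which also feeds protein prenylation. Fdft1 couples farnesyl diphosphate to squalene, Sqle oxidizes squalene, Lss closes the rings to lanosterol and Cyp51 removes a methyl group from lanosterol. The genes are targets of the transcription factor SREBP-2, which is cleaved and released from membranes when sterol falls. Insig1 is itself an SREBP target, and its protein holds the SREBP escort Scap in the endoplasmic reticulum when sterol is plentiful. Chondrocytes, bone cells and synovial cells all make cholesterol, and fat cells are rich in the related fatty acid pathway.

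Promoter sequences are shown for 4 genes: Hmgcs1, Cyp51 and Insig1, whose signals went up and down together from pool to pool, and Lss, whose brightest probe set went the other way (values below). The dimmer Lss probe sets did not follow that one. Windows from RefSeq (GRCm38.p6), from 250 bases before an annotated start to 50 bases after it and so running past that start, were at hand for 5 of the 8 genes. The fifth was Idi1. Capitals mark matches on either strand to a sterol regulatory element (TCACNCCAC), a CCAAT box (CCAAT, the site of NF-Y) or an E-box (CACGTG); no capitals overlap between motifs.
Hmgcs1: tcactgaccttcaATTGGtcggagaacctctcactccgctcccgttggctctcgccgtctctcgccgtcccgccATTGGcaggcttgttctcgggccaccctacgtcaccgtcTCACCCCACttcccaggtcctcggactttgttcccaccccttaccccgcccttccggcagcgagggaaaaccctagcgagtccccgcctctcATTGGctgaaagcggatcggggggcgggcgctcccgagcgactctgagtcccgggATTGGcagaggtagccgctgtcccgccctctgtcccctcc
Cyp51: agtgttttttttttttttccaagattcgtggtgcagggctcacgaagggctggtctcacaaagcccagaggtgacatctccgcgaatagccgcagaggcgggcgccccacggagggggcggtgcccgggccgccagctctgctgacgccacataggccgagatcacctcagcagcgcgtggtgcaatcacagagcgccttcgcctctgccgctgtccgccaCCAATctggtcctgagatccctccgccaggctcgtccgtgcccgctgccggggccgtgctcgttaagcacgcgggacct
Insig1: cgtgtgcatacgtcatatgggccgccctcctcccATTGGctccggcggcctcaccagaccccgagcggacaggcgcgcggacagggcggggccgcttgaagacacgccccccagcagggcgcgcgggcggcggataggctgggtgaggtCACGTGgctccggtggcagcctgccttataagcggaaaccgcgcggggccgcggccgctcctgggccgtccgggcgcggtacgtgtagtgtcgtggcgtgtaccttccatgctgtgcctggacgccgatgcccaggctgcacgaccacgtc
Lss: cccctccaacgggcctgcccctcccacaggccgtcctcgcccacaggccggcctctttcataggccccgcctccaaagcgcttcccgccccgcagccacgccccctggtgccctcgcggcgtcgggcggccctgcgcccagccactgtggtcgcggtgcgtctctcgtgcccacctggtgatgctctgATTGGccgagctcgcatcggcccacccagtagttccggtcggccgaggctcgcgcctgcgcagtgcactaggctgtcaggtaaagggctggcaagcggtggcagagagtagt
The windows lie at chr13:119690101-119690400 on the plus strand (Hmgcs1), chr5:4104648-4104947 on the minus strand (Cyp51), chr5:28071162-28071461 on the plus strand (Insig1) and chr10:76531355-76531654 on the plus strand (Lss). The start used for the Lss window lay inside the gene, whose first annotated base is chr10:76531565. Distances for Lss are counted from that inner start. The sterol regulatory element letters were found only in the Hmgcs1 window, 137 bases before the start, and in 1.24% of all 32851 windows of this length. CCAAT was in all 5 windows, against 37.4% of all windows: Hmgcs1 held 4 copies, Idi1 held 2, and Cyp51, Insig1 and Lss 1 each, 29, 216 and 62 bases before the start. Only the Insig1 window held CACGTG, 101 bases before the start, and 7.15% of all windows held it.

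A probe set was tested where its mean log2 signal was above 7.93, the median of the array medians, which left 22482 probe sets for 11488 genes. The brightest probe sets of all 8 genes were tested. Array medians lay between 7.90 and 7.95, and pools of one condition correlated at r of 0.977 to 0.996. All 6 chondrocyte markers passed the brightness filter, and their mean log2 signal was 9.86 to 10.37 in sham pools at 16 weeks, the lowest group, against 12.6 to 12.8 at time 0. One sham pool at 2 weeks (replicate 3) stood apart with low skeletal muscle markers (mean log2 signal of 7 markers 9.81, against 13.5 in the highest sham pool of that week). A change in signal in such mixed tissue cannot separate fewer cells of a type from less RNA per cell. Differences below are log2 ratios from a limma fit with their standard error, and a call means a Benjamini-Hochberg adjusted p under 0.05 over all tested probe sets.

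Insig1 was lower in every operated condition than at time 0, by 0.47 to 0.68 on the log2 scale, and was not called between DMM and sham at any week. Idi1 was lower at 2 weeks after either operation and Fdps at 2 weeks after DMM. Lss was lower at 4 weeks after DMM than after sham surgery by its brightest probe set, which its other probe sets did not follow. Cyp51 was slightly higher in DMM joints averaged over the 4 weeks sampled. Leaving out single pools ended each of the Idi1, Fdps, Lss and Cyp51 calls. No other call was made among the brightest probe sets of the 8 genes.

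**Figure D1:**
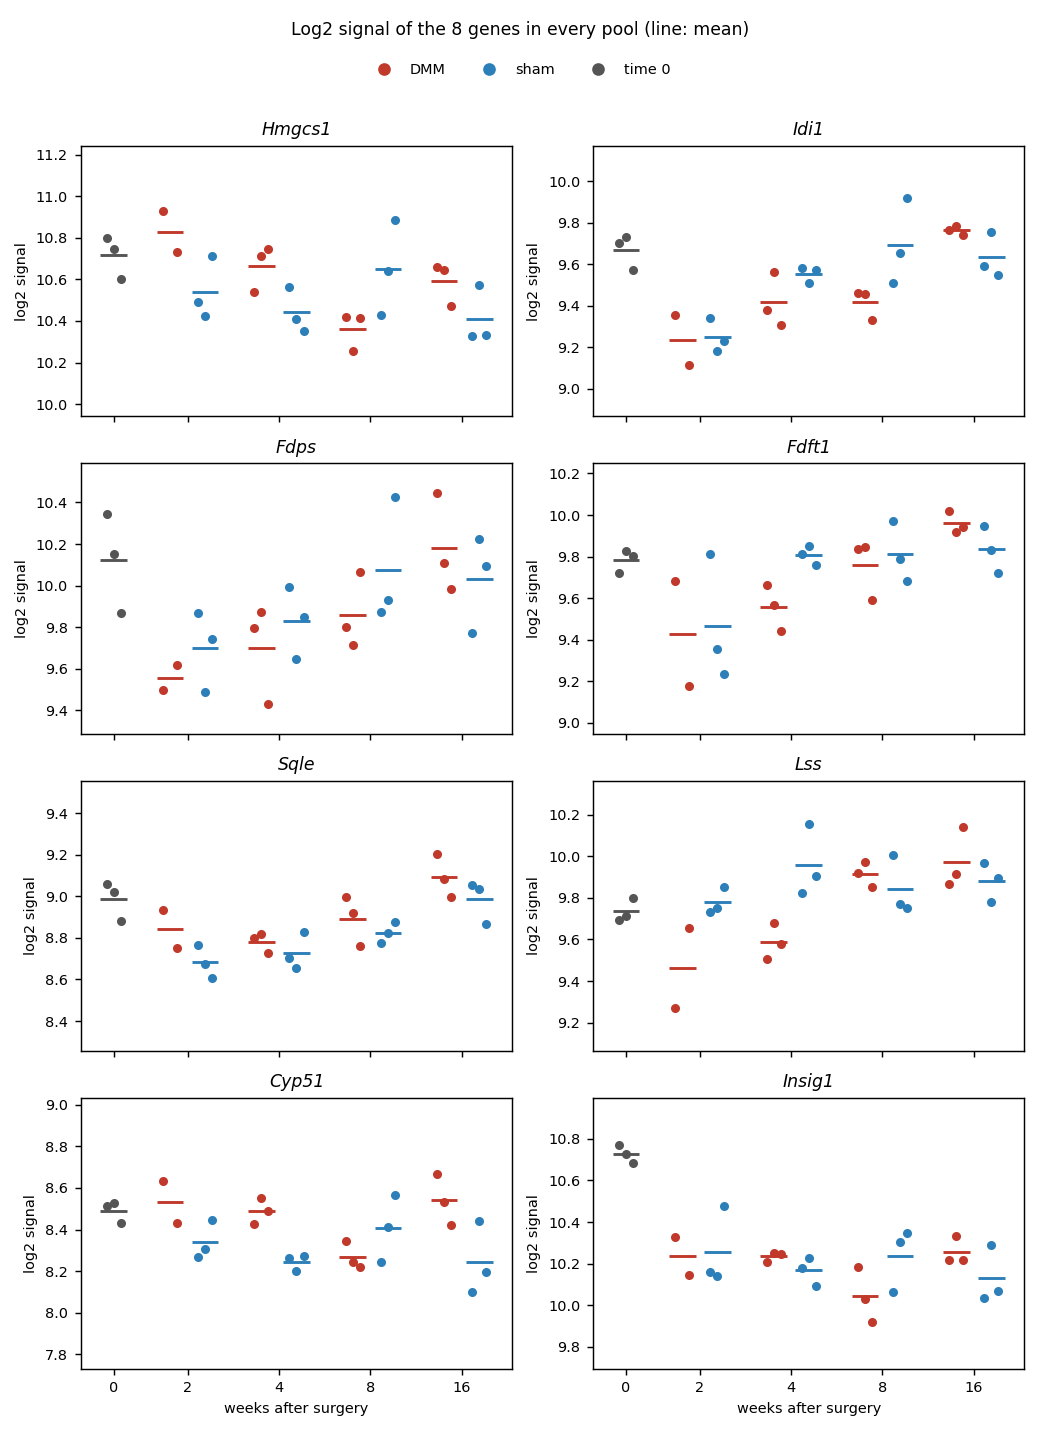
Log2 signal (vertical axis, one panel per gene) of every pool against weeks after surgery, with DMM pools to the left of the sham pools of the same week and time 0 at the left; points are pools, lines are means, and each panel spans the same number of log2 units. Insig1 lies between 10.68 and 10.77 in the time 0 pools and at 10.48 or lower in all 23 operated pools.

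Insig1 had log2 signals of 10.33 and 10.15 in the DMM pools at 2 weeks, 10.21, 10.25 and 10.25 at 4 weeks, 10.18, 10.03 and 9.92 at 8 weeks and 10.22, 10.33 and 10.22 at 16 weeks. The sham pools stood at 10.16, 10.14 and 10.48 at 2 weeks, 10.18, 10.23 and 10.09 at 4 weeks, 10.06, 10.31 and 10.35 at 8 weeks and 10.04, 10.29 and 10.07 at 16 weeks. The time 0 pools had 10.77, 10.73 and 10.68. Every operated pool was thus below every time 0 pool, and the sham 2-week pool that came closest was the one with few muscle transcripts. That pool also had the highest fat cell marker score of the operated pools (1.02, a mean of standardised log2 signals). Its osteoblast and osteoclast scores were the highest of all pools (2.25 and 2.39) and its erythroid score the lowest (-2.93). Relative to time 0, Insig1 fell in DMM joints by 0.49 ± 0.11, 0.49 ± 0.094, 0.68 ± 0.094 and 0.47 ± 0.094 (SE) from 2 to 16 weeks (limma, adjusted p = 0.00164, 0.00276, 0.000609 and 0.00883). In sham joints it fell by 0.47, 0.56, 0.49 and 0.60 at the same weeks, each ± 0.094 (limma, adjusted p = 0.0197, 0.00898, 0.0280 and 0.000615). The 8 comparisons share the 3 time 0 pools, so they are not 8 separate observations of the fall.

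Between DMM and sham, Insig1 had ratios of -0.020, 0.068, -0.19 and 0.12 from the first to the last week sampled, with 95% intervals of -0.24 to 0.20, -0.13 to 0.27, -0.39 to 0.0040 and -0.075 to 0.32. The pools overlapped at every week. With array weights Insig1 was called lower at 8 weeks after DMM than after sham surgery (-0.24, limma, adjusted p = 0.04). Leaving out 1 pool ended the call in sham joints at 2 weeks (without time 0 replicate 2 or 3 or sham replicate 2), at 4 weeks (time 0 replicate 1 or sham replicate 2) and at 8 weeks (any time 0 pool, or sham replicate 1 or 2), and in DMM joints at 16 weeks (DMM replicate 1). Where the call was lost in this way the ratio lay between -0.40 and -0.59. Insig1 has 1 probe set, so no second one can be set beside it.

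Fat cell markers moved with the same contrast. Of the 7 listed, 5 had a probe set, none was below the brightness threshold, and their mean log2 signal ranged from 9.89 to 9.97, 9.63 to 9.95, 10.08 to 10.22 and 9.68 to 10.27 in DMM pools at 2, 4, 8 and 16 weeks. It ranged from 10.26 to 10.71, 10.35 to 10.43, 10.23 to 10.54 and 10.10 to 10.27 in sham pools at those weeks, and from 10.85 to 11.25 at time 0. With the fat cell marker score as a covariate, Insig1 still lay 0.32 to 0.56 below time 0 in DMM joints and 0.39 to 0.49 below it in sham joints, but no comparison with time 0 was called (adjusted p between 0.193 and 0.978), for Insig1 or for any other probe set of the array. Among operated joints, the fat markers were lower in DMM pools than in sham pools without overlap at 2, 4 and 8 weeks, and the pools overlapped at 16 weeks. The Insig1 pools of DMM and sham overlapped at every week, and the plot gives Insig1 beside the fat marker score of each pool. Chondrocyte markers ranged over 12.70 to 13.01, 12.05 to 12.73, 10.76 to 11.28 and 10.46 to 11.14 in DMM pools at 2, 4, 8 and 16 weeks and over 12.25 to 12.90, 11.47 to 11.97, 11.13 to 12.27 and 9.86 to 10.37 in sham pools, against 12.63 to 12.82 at time 0. These ranges overlapped time 0 at 2 weeks after either operation and at 4 weeks after DMM. All sham pools from 4 weeks and all DMM pools from 8 weeks lay below every time 0 pool. The 4 synovial and fibroblast markers ranged over 11.80 to 11.81, 11.31 to 11.99, 10.76 to 10.91 and 10.78 to 10.94 in DMM pools and over 10.89 to 11.46, 10.54 to 10.87, 10.42 to 10.72 and 10.32 to 10.53 in sham pools, against 10.47 to 10.85 at time 0. The part of these cell types in the Insig1 result was not tested.

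**Figure D2:**
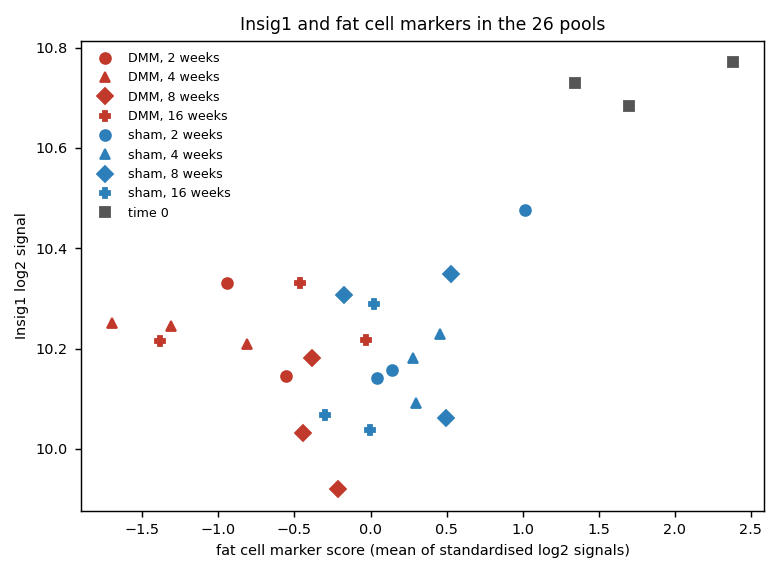
Insig1 log2 signal (vertical axis) against the fat cell marker score (horizontal axis, mean of standardised log2 signals of 5 markers, no unit) in each of the 26 pools; colours give the operation and shapes the week. The 3 time 0 pools stand at the upper right, and the DMM pools reach further left than the sham pools, while the Insig1 signals of both lie between 9.92 and 10.48.

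Of the 8 genes, those called lower than time 0 numbered 3 at 2 weeks after DMM and 1 at each of 4, 8 and 16 weeks, where 16.5%, 1.85%, 0.714% and 1.33% of all genes tested were called lower. After sham surgery the counts were 2, 1, 1 and 1, where 0.374%, 0.557%, 0.575% and 4.91% of all genes were called lower. None was called higher. The single gene after 2 weeks was Insig1 each time. The median ratio to time 0 over the 8 genes was -0.31, -0.22, -0.24 and 0.077 in DMM joints and -0.31, -0.25, -0.055 and -0.063 in sham joints at 2, 4, 8 and 16 weeks, while the median over all genes lay between -0.031 and 0.037 in these comparisons.

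**Figure D3:**
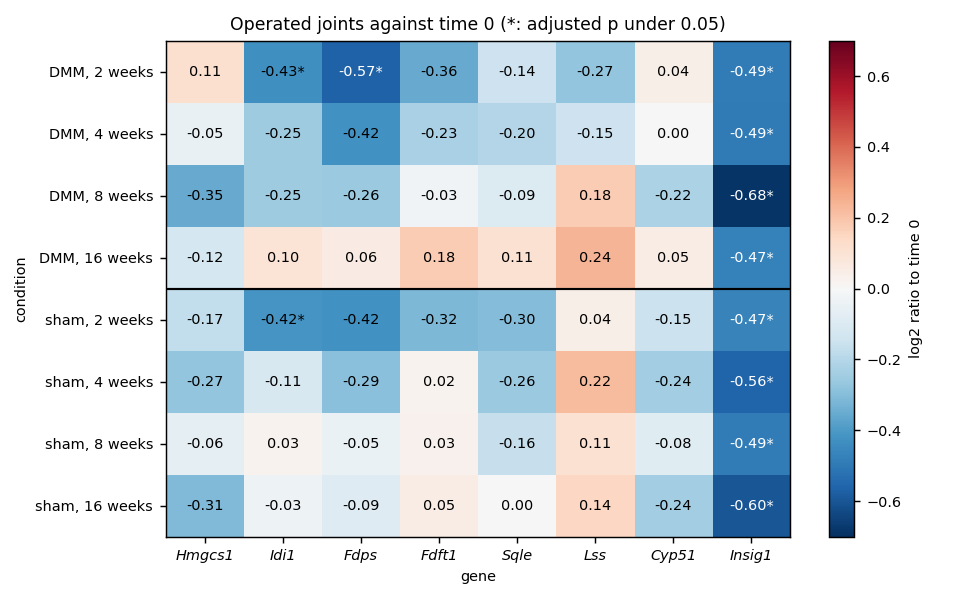
Log2 ratio of each gene (columns) in DMM and sham joints at each week (rows) to time 0, with colour and number giving the ratio and a star an adjusted p under 0.05. Insig1 is starred in all 8 rows, Idi1 in both 2-week rows and Fdps in the DMM 2-week row.

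Idi1 and Fdps, the pair of enzymes that prepare and join isoprene units, were at their lowest at 2 weeks by their brightest probe sets. Idi1 had 9.35 and 9.12 in the DMM pools at 2 weeks and 9.34, 9.18 and 9.23 in the sham pools, against 9.70, 9.73 and 9.57 at time 0. All 5 operated pools lay below time 0, with ratios of -0.43 ± 0.10 after DMM and -0.42 ± 0.091 after sham (limma, adjusted p = 0.00342 and 0.0285). By 16 weeks Idi1 was at 9.77, 9.78 and 9.74 in DMM pools and 9.59, 9.76 and 9.55 in sham pools, with no call against time 0 (ratios 0.096 and -0.034). Its second probe set gave -0.38 at 2 weeks after sham with an adjusted p of 0.266, and -0.29 after DMM with an adjusted p of 0.290, the same direction without a call. By that probe set the lowest DMM mean was at 8 weeks (8.70, against 8.80 at 2 weeks). The lowest sham mean was at 4 weeks (8.64, against 8.70 at 2 weeks). With the mean of both probe sets neither 2-week ratio was called (adjusted p = 0.105 after sham and 0.0617 after DMM). The sham call was lost without time 0 replicate 2 or 3 or sham replicate 2 or 3 (ratio -0.38 to -0.46), and the DMM call without DMM replicate 3 (ratio -0.31).

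Fdps had 9.50 and 9.62 in the DMM pools at 2 weeks, against 10.35, 10.15 and 9.87 at time 0, a ratio of -0.57 ± 0.19 (limma, adjusted p = 0.0292). The time 0 pools of Fdps were spread over almost as wide a range as this difference, and the call was lost without time 0 replicate 1 or 2 or DMM replicate 2 or 3 (ratio -0.45 to -0.63). It was also lost with the Gapdh 3' to 5' signal ratio, a measure of RNA quality, as a covariate (-0.30, adjusted p = 0.192), with array weights (-0.49, adjusted p = 0.0511) and with the Schwann cell score (-0.58, adjusted p = 0.0605). After sham surgery Fdps stood at 9.87, 9.49 and 9.74 at 2 weeks, all below time 0, but was not called (-0.42 ± 0.17, adjusted p = 0.195). Its second probe set was below the brightness threshold and was not tested.

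Between DMM and sham joints few of the 8 genes differed at any week. Over all genes tested, 2.82%, 20.3%, 0% and 0.0522% were called in either direction at 2, 4, 8 and 16 weeks, and among the 8 genes 0, 1, 0 and 0 were. At an unadjusted p under 0.05 there were 2, 2, 2 and 1 of the 8, and 2370, 4152, 1414 and 941 of all 11488 genes. One call among 8 genes at 4 weeks is not above the share of all genes called in that week. With arrays weighted by their quality in the fit, 5 of the 8 were called at 4 weeks (Hmgcs1 and Cyp51 higher, Idi1, Fdft1 and Lss lower). At 8 weeks 3 were called (Hmgcs1, Idi1 and Insig1 lower). The probe sets called over the array at 8 weeks then numbered 2403, against 1 without weights. At 4 weeks the alternative settings called up to 9669 of the 22482 probe sets, against 4282 in the fit reported. The median ratio of the 8 genes was -0.018, -0.039, -0.17 and 0.13 at the successive weeks, beside -0.026, -0.021, 0.010 and 0.0061 over all genes.

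**Figure D4:**
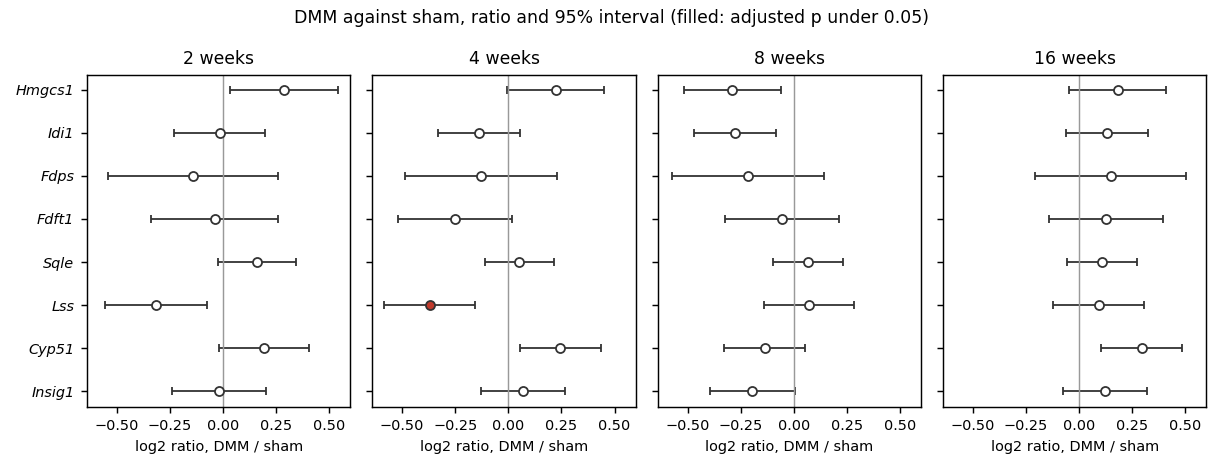
Log2 ratio of DMM to sham (horizontal axis) for each gene at 2, 4, 8 and 16 weeks, with bars giving the 95% interval and a filled point an adjusted p under 0.05. Only Lss at 4 weeks is filled, and at 16 weeks all 8 points, of the brightest probe sets, lie above 0, between 0.093 and 0.29.

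Lss, the enzyme that closes the sterol rings, was the gene called. At 4 weeks its pools had 9.51, 9.68 and 9.58 after DMM and 9.82, 10.16 and 9.90 after sham. The groups did not overlap, and the ratio was -0.37 ± 0.10 (limma, adjusted p = 0.0150). At 2 weeks the DMM pools, at 9.27 and 9.65, also lay below the sham pools, at 9.73, 9.75 and 9.85, but the ratio of -0.32 ± 0.11 was not called (adjusted p = 0.129). At 8 and 16 weeks the pools overlapped and the ratios were 0.072 and 0.093. The 4-week call was lost without sham replicate 2, the highest of the 6 pools (-0.27, adjusted p = 0.114), or DMM replicate 3 (-0.37, adjusted p = 0.0507).

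The other probe sets of Lss did not follow the brightest one. Both were below the brightness threshold, and at 4 weeks they gave ratios of -0.037 and 0.19 with overlapping pools. Averaged over its 3 probe sets Lss had a ratio of -0.074 at 4 weeks (adjusted p = 0.417), so the difference rests on a single probe set. With the fat cell score as a covariate the ratio was -0.22 (adjusted p = 0.453), and synovial and fibroblast markers had a mean log2 signal of 11.3 to 12.0 in DMM pools against 10.5 to 10.9 in sham pools in that week. Their part in the Lss result was not tested.

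Cyp51, which acts on the product of Lss, was on the other side. At 4 weeks it had 8.43, 8.55 and 8.49 in DMM pools and 8.26, 8.20 and 8.27 in sham pools, without overlap, with a ratio of 0.25 ± 0.090 that missed the threshold (limma, adjusted p = 0.0600). It had 8.64 and 8.43 in DMM pools and 8.27, 8.31 and 8.45 in sham pools at 2 weeks, and 8.67, 8.53 and 8.42 in DMM pools and 8.10, 8.44 and 8.20 in sham pools at 16 weeks. At 8 weeks the order turned, with 8.35, 8.24 and 8.22 in DMM pools and 8.24, 8.41 and 8.56 in sham pools. The mean of the 4 ratios was 0.15 ± 0.046, called at an adjusted p of 0.0310, where 19.1% of all genes were called in that average. It was the only one of the 8 genes called in it, and the call was lost without any 1 of 9 of the 23 operated pools (the ratio ranged over 0.12 to 0.17 without 1 pool in turn). Its dimmer probe sets, not tested, had ratios of 0.21 and 0.22 at 4 weeks, each with the DMM pools above the sham pools, and the mean of the 3 probe sets gave 0.22 in that week (adjusted p = 0.0278). With the fat cell score as a covariate the average was 0.099 (adjusted p = 0.624).

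Hmgcs1, at the entry of the pathway, had DMM to sham ratios on both sides of 0. The DMM pools were at 10.93 and 10.73 at 2 weeks, 10.54, 10.71 and 10.74 at 4 weeks, 10.42, 10.26 and 10.41 at 8 weeks and 10.66, 10.64 and 10.47 at 16 weeks. The sham pools were at 10.49, 10.42 and 10.71 at 2 weeks, 10.56, 10.41 and 10.35 at 4 weeks, 10.43, 10.64 and 10.89 at 8 weeks and 10.33, 10.57 and 10.33 at 16 weeks. DMM was thus above sham without overlap at 2 weeks and below it without overlap at 8 weeks. The ratios were 0.29 ± 0.12, 0.22 ± 0.11, -0.29 ± 0.11 and 0.18 ± 0.11 at the successive weeks, none of them called (limma, adjusted p = 0.199, 0.150, 0.303 and 0.775). Of its 4 dimmer probe sets, all were above 0 at 2, 4 and 16 weeks and below 0 at 8 weeks. One of them was called lower than time 0 at 4 and 16 weeks after sham (-0.36 and -0.35, limma, adjusted p = 0.0268 and 0.00977) and at 8 weeks after DMM (-0.33, adjusted p = 0.0462), where the brightest probe set was not called.

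Whether the DMM to sham difference changed with time was tested by setting the 4-week ratio against those of the other weeks. For Hmgcs1 the 4-week ratio exceeded the 8-week ratio by 0.51 ± 0.15 (limma, adjusted p = 0.0624), for Cyp51 by 0.38 ± 0.13 (adjusted p = 0.0804), and for Lss the difference was -0.44 ± 0.14 (adjusted p = 0.0755). None reached the threshold, in a test that called 1.63% of all genes. No gene of the array was called for 4 weeks against 2 weeks or against 16 weeks (0% each), where 506 and 1499 of all genes and 0 and 2 of the 8 had an unadjusted p under 0.05.

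At 16 weeks all 8 ratios were above 0, from 0.093 for Lss to 0.29 for Cyp51, while 52.3% of all genes had a ratio above 0. None was called, the lowest adjusted p being 0.364 for Cyp51. The pools of each of the 8 overlapped between DMM and sham, including Sqle with 9.20, 9.08 and 9.00 in DMM pools and 9.06, 9.03 and 8.87 in sham pools. With the mean of a gene's probe sets in place of the brightest, Fdps turned to -0.14, so that the sign was no longer common to all 8. All 7 skeletal muscle markers were also above 0 in this comparison (median ratio 0.78), as were all 6 chondrocyte markers (0.72) and all 5 neutrophil markers (0.092). So were all 4 synovial and fibroblast markers (0.46) and all 4 endothelial markers (0.17). None of 5 fat cell markers or 3 erythroid markers was above 0, and osteoblast and macrophage markers lay on both sides. None of these markers was called, and their part in the result was not tested. Since all 8 were measured on the same 6 arrays, their common sign is 1 observation on these pools and not 8.

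Fdft1 and Sqle, which make and oxidize squalene, had no call by their brightest probe sets. Over all pools Sqle ranged from 8.61 to 9.20, with its lowest condition mean in sham joints at 2 weeks (8.68 ± 0.080, SD, n = 3) and its highest in DMM joints at 16 weeks. Its ratio to time 0 was -0.14 at 2 weeks after DMM and -0.30 ± 0.078 after sham, where the sham pools lay below time 0 (limma, adjusted p = 0.0513). Fdft1 ranged from 9.18 to 10.02, lowest at 2 weeks after DMM and highest at 16 weeks after DMM. At 4 weeks its DMM pools, at 9.66, 9.57 and 9.44, lay below the sham pools, at 9.81, 9.85 and 9.76, with a ratio of -0.25 ± 0.13 (adjusted p = 0.168). Its other tested probe set gave -0.18 in that week with overlapping pools, but was called lower at 2 weeks after DMM than at time 0 (-0.42, limma, adjusted p = 0.0106), where the brightest gave -0.36 (adjusted p = 0.0653).

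Across the 26 pools the 28 pairs of genes correlated at a median r of 0.29, from -0.67 (Hmgcs1 with Lss) to 0.86 (Hmgcs1 with Cyp51), with 22 pairs above 0. With the mean of each condition removed, so that only differences between pools of a condition remain, the median was 0.26 and 17 pairs were above 0. Hmgcs1, Cyp51 and Insig1 then correlated with each other at 0.84, 0.76 and 0.75. The brightest probe set of Lss was below 0 with each of the other 7 genes (-0.18 to -0.59). The dimmer probe sets of Lss, which did not follow the brightest one between DMM and sham, were not correlated here. Idi1 was the gene closest to the mean of the others, at 0.84 on either scale. These are descriptions over pools that share arrays, and no test was made of them.

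**Figure D5:**
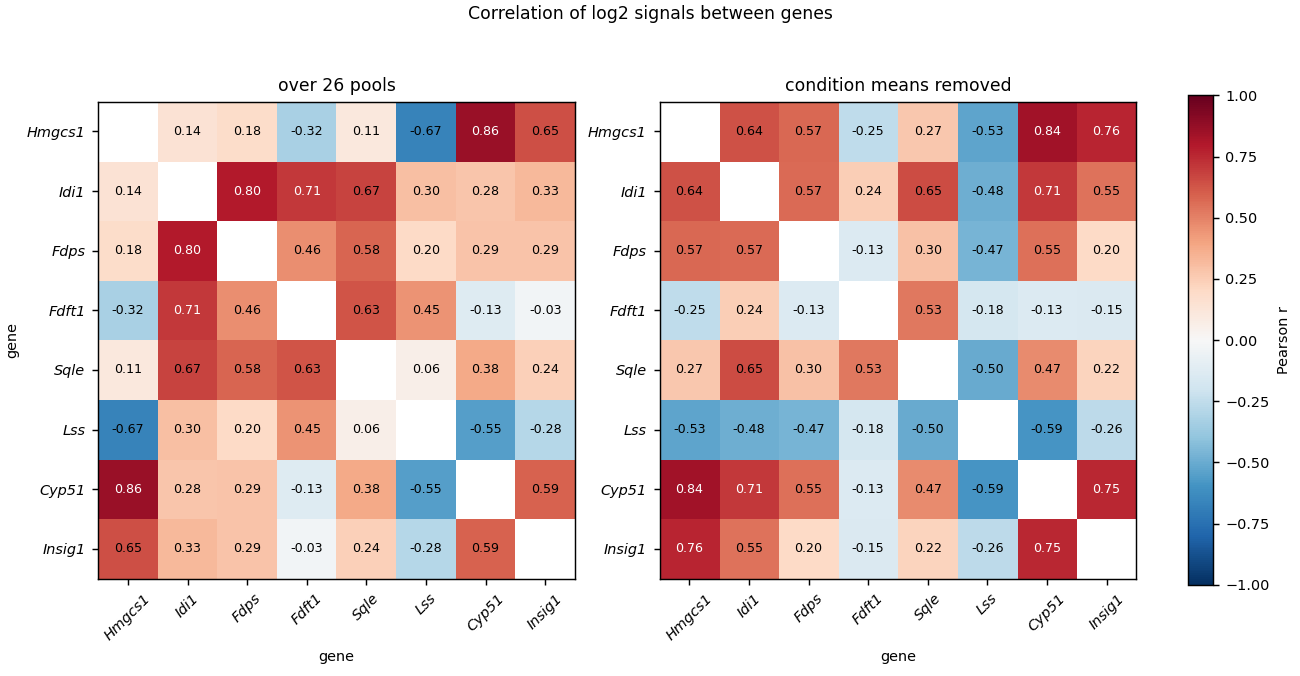
Pearson r between the log2 signals of each pair of genes, over the 26 pools (left) and after the mean of each condition was removed (right); colour and number give r. Each gene is shown by its brightest probe set. The Lss row is below 0 throughout on the right, and Hmgcs1, Cyp51 and Insig1 reach 0.75 to 0.84 with each other.

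Of 11480 other genes, those whose brightest probe set ran most like the mean of the 8 standardised genes over 26 pools were Aifm1 (r = 0.81), a mitochondrial flavoprotein, Aasdhppt (0.78), which attaches phosphopantetheine to carrier proteins, Mrpl40 (0.77), a mitochondrial ribosomal protein, Pole4 (0.77), a DNA polymerase subunit, and Nudt5 (0.77), a nucleotide sugar hydrolase. The most opposite were Rere (-0.76), Ercc6l2 (-0.76) and Snx8 (-0.72). The median over all genes was 0.052, and 33 genes were above 0.7. Among the other enzymes of the pathway, Dhcr7, which performs a final reduction to cholesterol, reached 0.73, the highest of the 11 measured, and Hsd17b7 had the lowest value, -0.088.

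The other genes of cholesterol handling were counted by list. Of 11 further cholesterol synthesis enzymes tested, 1 was lower after DMM than after sham surgery at 4 weeks. In that comparison 810 of all 11488 genes were called lower. The enzyme was Lbr, a sterol reductase that is also a nuclear envelope protein and the brightest of the list. Its ratio was -0.30 ± 0.073 (limma, adjusted p = 0.00802). None of the list was called between DMM and sham at the other weeks. Ebp, the next brightest, had 0.090. Against time 0 the list had 2 of 11 genes lower at 2 weeks after DMM, where 16.5% of all genes were called lower, and none at the later DMM weeks. After sham 1 gene, Lbr, was higher at 16 weeks (0.25, limma, adjusted p = 0.0438), where 171 of all 11488 genes were called higher.

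The next list held genes of sterol sensing and SREBP processing and some related genes. Of its 8 genes tested, 4 were higher after DMM than after sham surgery at 4 weeks and none was lower. The median ratio over the 8 was 0.093, and 13.2% of all genes were called higher. In the same comparison 3 of 4 synovial and fibroblast markers and 3 of 4 endothelial markers were called higher (median ratios 0.96 and 0.43), and their part in the calls of this and the following lists was not tested. The 4 genes of the list called included Mylip, which targets the LDL receptor for degradation (0.48 ± 0.13, limma, adjusted p = 0.0124). The others were Mbtps2 and Mbtps1, the proteases that release SREBP (0.37 ± 0.074, adjusted p = 0.00246, and 0.17 ± 0.057, adjusted p = 0.0455), and Insig2, the paralog of Insig1 (0.33 ± 0.086, adjusted p = 0.0114). Mbtps1 was also higher at 2 weeks (0.29 ± 0.064, limma, adjusted p = 0.0267), where 219 of all 11488 genes were called higher. It was the only call of the list in that week, and there was none at 8 or 16 weeks. Insig2 was lower than time 0 at 16 weeks after sham (-0.46 ± 0.086, limma, adjusted p = 0.00269), where 4.91% of all genes were called lower. It was the only call of Insig2 against time 0 after sham surgery. Srebf2, which encodes SREBP-2, had DMM to sham ratios of 0.082, -0.0066, 0.11 and 0.042 at the successive weeks, and Scap had 0.054, 0.018, 0.093 and 0.068, none of them called.

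In the isoprenoid branch, which leads from farnesyl diphosphate to prenyl groups and dolichol, 2 of 7 tested genes were higher at 4 weeks after DMM than after sham surgery, beside the 13.2% of all genes: Pggt1b, a subunit of a prenyltransferase (0.67 ± 0.14, adjusted p = 0.00412), and Dhdds, of dolichol synthesis (0.18 ± 0.059, adjusted p = 0.0399). The brightest of the list, Fnta and Coq2, had 0.012 and 0.033. Dhdds was also lower than time 0 at 4 weeks after sham (-0.28, limma, adjusted p = 0.0262), where 0.557% of all genes were called lower. Of 8 genes of cholesterol export tested, 1 was higher in DMM joints at 4 weeks, beside the 13.2% of all genes. It was Abca1, the efflux transporter (0.42 ± 0.14, limma, adjusted p = 0.0401). Abca1 was also higher than time 0 at 2 weeks after sham (0.65 ± 0.14, limma, adjusted p = 0.0265). In that comparison 188 of all 11488 genes were called higher. Npc2 and Apoe, the brightest of that list, had ratios of -0.053 and 0.057 between DMM and sham at 4 weeks.

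In fatty acid synthesis, another SREBP-driven pathway, none of 11 genes was called between DMM and sham at any week (Scd1, the brightest, had -0.81 ± 0.29 at 4 weeks, adjusted p = 0.0587, and Scd2 had 0.34). Relative to time 0, 5, 7, 4 and 3 of the 11 were lower in DMM joints and 3, 5, 2 and 5 in sham joints at 2, 4, 8 and 16 weeks. Of all genes tested, 16.5%, 1.85%, 0.714% and 1.33% were called lower in DMM joints at those weeks. In sham joints 0.374%, 0.557%, 0.575% and 4.91% were. None of the 11 was called higher, and no sham ratio was above 0 in any week. Fasn, the fatty acid synthase, had sham ratios of -1.05, -1.35, -1.08 and -1.39 at the successive weeks (SE 0.22, adjusted p between 0.000614 and 0.0324), and Acaca, which makes malonyl-CoA, had -0.55, -0.66, -0.54 and -0.67. Among the other calls after sham were Acss2 at 2 weeks (-0.61), Me1 and Elovl6 at 4 weeks (-0.66 and -0.49), and Me1 and Scd2 at 16 weeks (-1.07 and -0.57). The fat cell marker values given for Insig1 above apply to these genes too.

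By the filter of the study's methods, which asks for an absolute signal log ratio of at least 0.5 at 1 or more weeks in each of 3 replicate time courses and for agreement between the replicates, 0 of the 8 genes passed in the sham or the DMM time course. Insig1 met the size limit in 3 of 3 sham replicates and the distance limit in 3 of 3 pairs, but 0 of the 3 correlations between replicates over the weeks reached 0.7.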

How the data were processed

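RNA of medial knee tissue was measured on 1-colour Affymetrix mouse genome arrays. The authors deposited the log2 signal of each probe set after systematic variation normalization, which brings arrays to a common scale. The depth of an array is not a count, so the number of pools limits the precision. Of the probe sets, 34958 carried 1 gene symbol, 932 several and 9211 none, and only those with 1 were named.

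The log2 signals were fitted with limma 3.58.1 (R 4.3.3), with 1 coefficient for each of 9 conditions over 26 arrays (17 residual degrees of freedom), and p-values were adjusted over all 22482 probe sets tested. The 95% intervals use the standard error and those degrees of freedom. An exact permutation test of 3 pools against 3 cannot go below p = 0.1, nor one of 2 against 3 below 0.2. Pools hold different mice, so the p-values measure the spread between pools.

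The 8 genes and all gene and marker lists were chosen with earlier results of these data known. Named besides the 8 were genes of the other lists called between DMM and sham or between sham and time 0 (at most 4 per list and comparison), the 2 brightest per list, and the genes most and least like the mean of the 8; Srebf2 and Scap, and Dhcr7 and Hsd17b7 by their likeness, were named after their values were seen. The pool number did not pair pools. Marker scores are means of standardised log2 signals. Alternatives covered the brightness filter, normalization, array weights, variance model, pools left out, marker and RNA quality covariates, and the mean of a gene's probe sets. The study's filter was applied without its step on detection p-values, which was not used here. Data were also simulated with independent noise for each probe set. There the fit called most of the placed changes that exceeded every ratio of the 8 genes. How it fared at the sizes seen for the 8 genes is not reported here.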

Additional observations from a re-analysis of the deposited data

Results flagged for a closer look

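For 6 genes, every DMM pool lay on one side of the sham mean at one week and on the other side at another week. Pairs of weeks that include the 4-week ratio were tested, and none of the 8 genes was called there in the fit reported, Fdft1 between 4 and 16 weeks among them (-0.38, limma, adjusted p = 0.389). The other pairs were not tested. The DMM to sham ratio at 2 weeks minus that at 8 weeks was 0.58 for Hmgcs1, 0.33 for Cyp51 and -0.39 for Lss. The ratio at 8 weeks minus that at 16 weeks was -0.47 for Hmgcs1, -0.43 for Cyp51, -0.41 for Idi1 and -0.32 for Insig1. All 7 of these untested differences involve the 8-week pools. Between DMM and sham at that week limma called no gene of the array by its brightest probe set without array weights (1414 genes had an unadjusted p under 0.05), but 2403 probe sets with them.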

How the results depend on the processing

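The number of the 8 genes called changed with the setting as follows. Without a brightness filter, with the Gapdh 3' to 5' ratio as a covariate or with the mean of a gene's probe sets, 1 gene was called at 2 weeks after sham against time 0, and with the muscle score 4. With only the compared groups fitted, 0 were called between DMM and sham at 4 weeks and between sham and time 0 at 2 or 8 weeks. In the average DMM effect 0 were called with array weights, or with the Schwann cell or fat cell score. With a stricter brightness filter, which left 6 of the 8 genes (not Cyp51 or Sqle), 0 were called in that average. Quantile normalization called 2 at 4 weeks after DMM against time 0. Array weights called 5 at 4 weeks and 3 at 8 weeks between DMM and sham, and 5 at 4 weeks and 3 at 8 weeks for DMM against time 0. For sham against time 0 they called 0 at 2 weeks and 3 at 16 weeks. For the 4-week ratio minus the 8-week and the 16-week ratio they called 4 and 3. Counts over the array moved with the setting as well. Across the alternatives they ranged from 0 to 9754 probe sets at 4 weeks after DMM against time 0 (1837 in the fit reported). They ranged from 0 to 9317 for 4 minus 8 weeks (358 in the fit reported) and from 0 to 3961 for 4 minus 16 weeks (0 in the fit reported). The muscle score called 0 at 8 weeks after sham and 1 for 4 minus 8 weeks. The fat cell score called 0 between DMM and sham at 4 weeks and 0 in all 8 comparisons with time 0. The variance model changed none of the counts of the 8 genes by more than 1.5 times, nor did the pool number as a replicate block. Under the block 3 genes were called at 2 weeks after sham against time 0, 4 at 2 weeks after DMM, and 1 at 4 weeks between DMM and sham. Under that block 328, 4785, 1 and 12 probe sets of the array were called between DMM and sham at the successive weeks, against 546, 4282, 1 and 14 without it. Same-numbered pools correlated at a mean r of 0.11 (-0.42 to 0.73), so the numbers were not taken as pairs.

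Some ratios changed sign. Between DMM and sham, Fdft1 at 2 weeks (-0.039 as reported) became 0.010 (replicate block) and 0.0020 (mean of probe sets), Idi1 at 2 weeks (-0.016) 0.038 (mean of probe sets), Insig1 at 2 weeks (-0.020) 0.015 (muscle score) and 0.044 (fat cell score), Sqle at 4 weeks (0.052) -0.060 (fat cell score), Fdft1 at 8 weeks (-0.053) 0.13 (muscle score) and Fdps at 8 weeks (-0.22) 0.017 (Gapdh). With the mean of probe sets, Fdps became 0.16 at 4 weeks (-0.13 as reported) and -0.14 at 16 weeks (0.15), and Lss -0.017 at 8 weeks (0.072). For sham at 16 weeks against time 0, Sqle (-0.0014 as reported) became 0.024 (quantile) and 0.00067 (common array median), Fdps (-0.091) 0.026 (array weights), 0.15 (Gapdh) and 0.10 (mean of probe sets), Fdft1 (0.050) -0.0083 (array weights), -0.055 (Gapdh) and -0.17 (fat cell score), and Lss (0.14) -0.084 (mean of probe sets). None of these ratios was called in either setting, and the cause was not tested.

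Leaving out 1 pool in turn, the counts of the 8 genes called ranged over 0 to 0, 0 to 1, 0 to 1 and 0 to 0 between DMM and sham, 2 to 3, 1 to 1, 1 to 1 and 0 to 1 for DMM against time 0, and 0 to 4, 0 to 1, 0 to 1 and 1 to 2 for sham against time 0, at 2, 4, 8 and 16 weeks. They ranged over 0 to 3 for 4 minus 8 weeks, 0 to 0 for the other interactions and 0 to 2 for the average. The ratios that changed sign when a pool was left out ranged, between DMM and sham, from -0.13 to 0.10 for Idi1, -0.29 to 0.21 for Fdft1 and -0.11 to 0.088 for Insig1 at 2 weeks, -0.22 to 0.0045 for Fdps at 4 weeks and -0.12 to 0.030 for Fdft1 at 8 weeks. For sham at 16 weeks against time 0 they ranged from -0.054 to 0.058 for Sqle, -0.095 to 0.0076 for Idi1, -0.22 to 0.038 for Fdps and -0.0066 to 0.11 for Fdft1. Single pools also added calls: Idi1 was lower in DMM than in sham at 8 weeks without sham replicate 1 (-0.37, limma, adjusted p = 0.0425), and Cyp51 lower at 16 weeks after sham than at time 0 without sham replicate 2 (-0.34, adjusted p = 0.0329). Over the array, between 0 and 9669 probe sets were called between DMM and sham at 4 weeks across the alternatives, against 4282 in the fit reported.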
